A study of Mus musculus with 12 samples.

Results

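The nuclear genes of the mitochondrial respiratory chain were followed in the liver of mice on 4 diets. Members were taken by name: a gene entered if its symbol, read from the accession of its probe, begins with Nduf, Uqcr, Atp5 or Cox4 to Cox8, or is Sdha, Sdhb, Sdhc or Sdhd. Where a gene had several probes, the brightest was used. The rule found 93 genes among the 20882 genes that could be named on the array. Complex I had 44 of them (7 core subunits, 29 accessory subunits and 8 assembly factors named with the subunits), complex II had 4, complex III had 8, complex IV had 20 and complex V had 17. Among protein-coding symbols that meet the rule, Ndufb1, Ndufb4b and Ndufb4c had no named probe and were not analysed here.

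The respiratory chain sits in the inner membrane of the mitochondrion. Complex I takes electrons from NADH and complex II takes them from succinate, complex III passes them to cytochrome c, and complex IV hands them to oxygen. Complexes I, III and IV pump protons while doing so, and complex V, the ATP synthase, lets the protons flow back to make ATP. Most subunits are encoded in the nucleus and a few in the mitochondrial genome, and hepatocytes, which are rich in mitochondria, transcribe the nuclear set strongly.

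All animals were female C57BL/6N mice, bought at 6 weeks of age, housed in groups and fed variants of a diet named NFD for 6 months, with 3 mice per diet. Ctrl mice ate NFD whose carbohydrate was corn starch and sucrose. RS mice ate the same diet with resveratrol, a plant stilbene. In the diet of DJ mice, rice of the cultivar Dongjin took the place of starch and sugar, and in that of DJ526 mice the resveratrol-enriched rice DJ526 did so, a transgenic Dongjin line. RS and DJ526 thus carried resveratrol on a starch and on a rice background, with Ctrl and DJ as their counterparts. Cages were assigned to diets as a whole, so that cage and diet cannot be told apart. Groups follow the sample labels; a supplementary sample list of the study names the DJ and RS samples the other way round, and which is right was not tested, so each DJ and RS value holds for the arrays so labelled.

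Each liver was read on 1 array of 1 colour. The share of spots well above background was 73.0% to 80.8%. The arrays shared 3 slides. Slide 1 held the 3 Ctrl arrays and DJ replicate 1, slide 2 the other DJ arrays with the first 2 of RS, and slide 3 the last RS array with all of DJ526. Diet and slide therefore largely coincide. The tissue was checked against its markers: the 6 hepatocyte markers were well above background on all 12 arrays, and of 5 skeletal muscle markers 2 were well above background on all arrays. Levels are given on the log2 scale, as signal relative to the upper quartile of all spots on the array, so that 0 is that quartile. Levels of different genes come from different probes and are not set against each other. Fewer cells of a type and less RNA per cell cannot be told apart in whole liver.

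Promoters of respiratory chain genes are known for binding sites of NRF1, of ETS-family factors such as GABP and of YY1, and because members are compared here as a group, stretches that hold such letters are shown for 6 of them. RefSeq windows of 300 bases (250 before to 50 after the annotated start, build GRCm38.p6) were found for 76 of the 93 members and for 27025 genes in all. On either strand, GCATGCGC (NRF1) stood in the windows of 12 members, or 15.8%, against 3.05% of all genes and 5.00% of the genes detected on all arrays. A palindromic form of 10 bases known for NRF1 contains these letters. It stood in 7 members, or 9.21%, against 1.07% of all genes and 1.89% of the detected genes. AAGATGGCG (YY1) stood in 8 members, or 10.5%, against 1.64% of all genes and 2.92% of the detected genes. Of these 8, 6 belong to complex I, which has 39 of the 76 members with a window. CCGGAAGT (ETS) stood in 5 members, or 6.58%, against 4.31% of all genes and 7.50% of the detected genes. TATAAA was found for 8 members, or 10.5%, against 15.7% of all genes and 11.2% of the detected genes. Members had 1.07 windows per gene and all genes had 1.22. In the stretches shown, 170 bases before to 30 after the start, 5′ to 3′ on the strand of the gene, capitals mark GCATGCGC, CCGGAAGT and AAGATGGCG or their reverse complements:
Ndufaf4 (chr4:24897913-24898112, plus strand): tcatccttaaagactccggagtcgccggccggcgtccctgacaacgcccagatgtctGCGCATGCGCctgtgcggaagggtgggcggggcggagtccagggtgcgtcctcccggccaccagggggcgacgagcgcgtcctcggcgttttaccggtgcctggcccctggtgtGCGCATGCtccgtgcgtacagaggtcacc
Ndufaf8 (chr11:120098764-120098963, plus strand): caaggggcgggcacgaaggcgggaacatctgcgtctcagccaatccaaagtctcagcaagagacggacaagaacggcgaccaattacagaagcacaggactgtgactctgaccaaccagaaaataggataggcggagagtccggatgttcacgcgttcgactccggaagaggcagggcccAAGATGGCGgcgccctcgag
Sdhb (chr4:140961101-140961300, plus strand): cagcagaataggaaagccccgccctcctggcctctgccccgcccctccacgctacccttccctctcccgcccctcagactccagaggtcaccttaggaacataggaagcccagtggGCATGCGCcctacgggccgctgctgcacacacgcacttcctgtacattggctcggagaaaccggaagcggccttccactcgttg
Uqcr11 (chr10:80406792-80406991, minus strand): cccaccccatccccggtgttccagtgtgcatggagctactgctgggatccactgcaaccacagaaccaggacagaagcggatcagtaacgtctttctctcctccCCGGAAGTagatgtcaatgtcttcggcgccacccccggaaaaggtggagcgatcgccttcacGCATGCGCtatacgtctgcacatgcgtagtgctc
Cox6a1 (chr5:115348929-115349128, minus strand): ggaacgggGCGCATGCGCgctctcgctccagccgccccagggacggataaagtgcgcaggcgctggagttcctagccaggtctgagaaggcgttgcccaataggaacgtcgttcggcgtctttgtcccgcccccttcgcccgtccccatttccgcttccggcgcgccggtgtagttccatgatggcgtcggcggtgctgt
Atp5g2 (chr15:102671018-102671217, minus strand): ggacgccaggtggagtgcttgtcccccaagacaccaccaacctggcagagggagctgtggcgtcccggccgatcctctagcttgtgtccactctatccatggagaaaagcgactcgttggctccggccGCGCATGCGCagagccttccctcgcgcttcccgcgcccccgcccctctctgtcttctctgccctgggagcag

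These 6 stretches were picked because they hold such letters, and most members had none. Of the 76 members with a window, 24, or 31.6%, held at least 1 of the marked forms. The share was 8.47% of all genes and 14.4% of the detected genes. Sdhb, Uqcr11, Cox6a1 and Atp5g2 show such letters for complexes II, III, IV and V, and the assembly factors Ndufaf4 and Ndufaf8 show them for complex I. In Uqcr11 the ETS letters began 66 bases and the NRF1 letters 4 bases before the start. In Ndufaf8 the YY1 letters lay just after it. A match of letters is a description of the window and no measurement of binding.

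The respiratory chain was detected nearly in full. Of the 93 genes, 90 were well above background on all 12 arrays. Cox7b2 and Cox8c, isoforms known from testis, were so on 0 arrays. The probe of Ndufs4, an accessory subunit of complex I, was flagged as an outlier on DJ replicate 3, and the fit dropped that array for it. The members varied little between mice of a diet. The median of the pooled SD within groups was 0.09 on the log2 scale over the 90 detected members, or 6.23%. Over the 15562 named genes detected on all arrays it was 0.18. Those genes were dimmer, with a median level of -0.73 beside 5.53 for the members. Spread was not compared at like signal. With 3 mice per diet an exact permutation test on a single gene could not give a p below 0.1, so calls rest on limma across all 39429 probes.

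No member passed the test in any comparison of diets. At an adjusted p of 0.05 the number of members called was 0 in each of the 6 comparisons between diets, in the comparison of the effects of resveratrol on rice and on starch, and in the F-test over the 4 diets. The lowest adjusted p of a member was 0.413 for RS against Ctrl, 0.763 for DJ against Ctrl, 0.27 for DJ526 against Ctrl, 0.247 for DJ526 against DJ, 0.684 for DJ526 against RS and 1.00 for DJ against RS. Over all probes, 0 were called for RS against Ctrl (0.00%), DJ against Ctrl (0.00%) and DJ against RS (0.00%), 2 for DJ526 against Ctrl (0.00507%), 4 for DJ526 against DJ (0.0101%) and 3 for DJ526 against RS (0.00761%). The count of 0 for members says what could be called with these arrays and not that the diets left the genes alike.

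Unadjusted p-values under 0.05 were about as frequent among members as among all probes. They were found for 8 members in RS against Ctrl, 2 with a higher and 6 with a lower level, against 6.00% of all probes. DJ against Ctrl had 5 (3 higher, 2 lower) against 5.22%, DJ526 against Ctrl had 10 (1 higher, 9 lower) against 10.8%, and DJ526 against DJ had 10 (0 higher, 10 lower) against 9.81%. DJ526 against RS had 5 (0 higher, 5 lower) against 5.50%, and DJ against RS had 5 (3 higher, 2 lower) against 3.52%. Of the 93 members, 8 made 8.60%, 10 made 10.8% and 5 made 5.38%. The members with such p-values in the DJ526 comparisons mostly lay on the lower side.

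In DJ526 livers most members lay slightly lower. Against Ctrl, 77 of 93 had a lower and 16 a higher mean level, with a median difference of -0.08 on the log2 scale, beside 0.02 over all probes. Against DJ, 79 of 93 were lower, with a median of -0.09 beside 0.04 over all probes. Against RS, 75 of 93 were lower, with a median of -0.06 beside 0.00. Of the 15562 detected genes, 49.3%, 48.8% and 50.5% lay lower in these comparisons. RS against Ctrl (55 lower, median -0.03, beside 47.2% of the detected genes lower) and DJ against Ctrl (45 lower, median 0.01, beside 49.6%) were more even, and DJ against RS had 31 lower (median 0.03, beside 52.6%). The sign of these last 3 medians was not stable: on the values deposited by the authors DJ against Ctrl and DJ against RS were both at -0.01, and without RS replicate 2 RS against Ctrl was at 0.00 with 45 members lower. These comparisons share arrays: all of DJ526 enters the first 3 of the 6. The largest of these medians, -0.09 for DJ526 against DJ, was about as large as the pooled SD of a typical member.

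**Figure D1:**
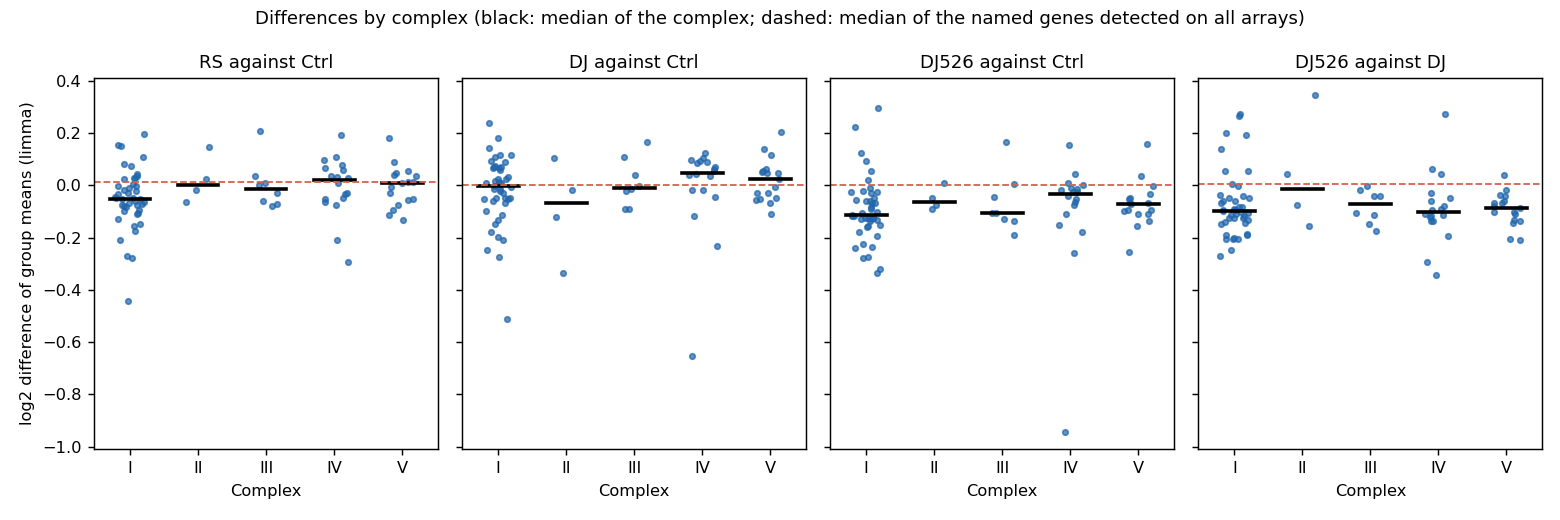
Log2 difference of group means (y axis) for 91 respiratory chain genes by complex (x axis), a panel per comparison; points are genes, black lines the median of a complex, and the dashed line the median of 15562 detected genes. Cox7b2 and Cox8c are left out as not above background. In both DJ526 panels the black lines of all complexes lie below the dashed line, and in the RS and DJ panels they lie on either side of it.

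Separation of single genes leaned the same way in the DJ526 comparisons. Members whose 3 DJ526 arrays all lay below the 3 Ctrl arrays numbered 19 (20.4%), against 9.98% of the detected genes, and 1 lay above, against 12.2%. For DJ526 against DJ, 18 (19.4%) lay below, against 7.60%, and 2 above, against 10.7%. For DJ526 against RS, 10 (10.8%) lay below, against 7.13%, and 0 above, against 5.29%. For RS against Ctrl, 14 (15.1%) lay below, against 5.10%, and 3 above, against 6.55%. For DJ against Ctrl, 12 (12.9%) lay below, against 5.15%, and 5 above, against 5.58%. For DJ against RS, 2 (2.15%) lay below, against 3.69%, and 9 above, against 3.26%. Members wholly below Ctrl thus exceeded the share of the detected genes on each of the other diets. This held for DJ although only 45 of 93 members had a lower mean there. These comparisons share the Ctrl arrays. Complex I, with 44 of the 93 members, had 9 of the 14 below Ctrl in RS and 7 of the 12 in DJ.

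Signal strength moved with this shift. The 1341 other genes whose signal was at or above the lower quartile of the members, a level of 3.78, had medians of -0.03 for DJ526 against Ctrl, -0.05 against DJ and -0.01 against RS. Of them, 58.8%, 66.1% and 54.7% lay lower in DJ526, and 13.1%, 15.0% and 6.19% lay wholly below the other group, while 4.40%, 2.54% and 2.09% lay wholly above. For RS against Ctrl, 53.3% were lower, 8.13% wholly below and 5.52% wholly above, for DJ against Ctrl 41.8%, 5.00% and 8.05%, and for DJ against RS 35.7%, 2.16% and 7.16%. The 70 members at that level had medians of -0.08, -0.09 and -0.06, with 14, 17 and 7 wholly below. The lower side is thus in part shared by strongly hybridising probes in general. The part of signal strength in the shift of the members was not tested.

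Much of the shift lay on 1 array. On DJ526 replicate 1 the median member was -0.15 from its own mean of the 12 arrays, while DJ526 replicates 2 and 3 were at 0.03 and -0.04. The Ctrl arrays were at 0.02, 0.07 and -0.01, the RS arrays at 0.02, -0.06 and 0.04, and the DJ arrays at 0.02, 0.05 and 0.03. DJ526 replicate 1 was the lowest of the 12 arrays for 56 of 93 members and the highest for 0, and the other strong genes had a median of -0.07 there. All complexes took part, at -0.14 for complex I, -0.12 for complex II, -0.15 for complex III, -0.17 for complex IV and -0.16 for complex V. Without this mouse the member medians were -0.05 against Ctrl, -0.05 against DJ and -0.01 against RS, with 60, 65 and 50 of 93 members lower.

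The rank of that array depended on how the arrays were scaled. In the globally normalized values deposited by the authors it was the lowest for 12 members, with a median of -0.07, while RS replicate 2 was the lowest for 32 with a median of -0.08. Quantile normalization gave 12 and 31. The DJ526 medians on the deposited values were -0.04 against Ctrl, -0.03 against DJ and -0.04 against RS, with 65, 62 and 68 of 93 members lower. More members lay below than above 0 in these 3 comparisons under each scaling, the size was smaller on the deposited values, and no member was called under any scaling.

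**Figure D2:**
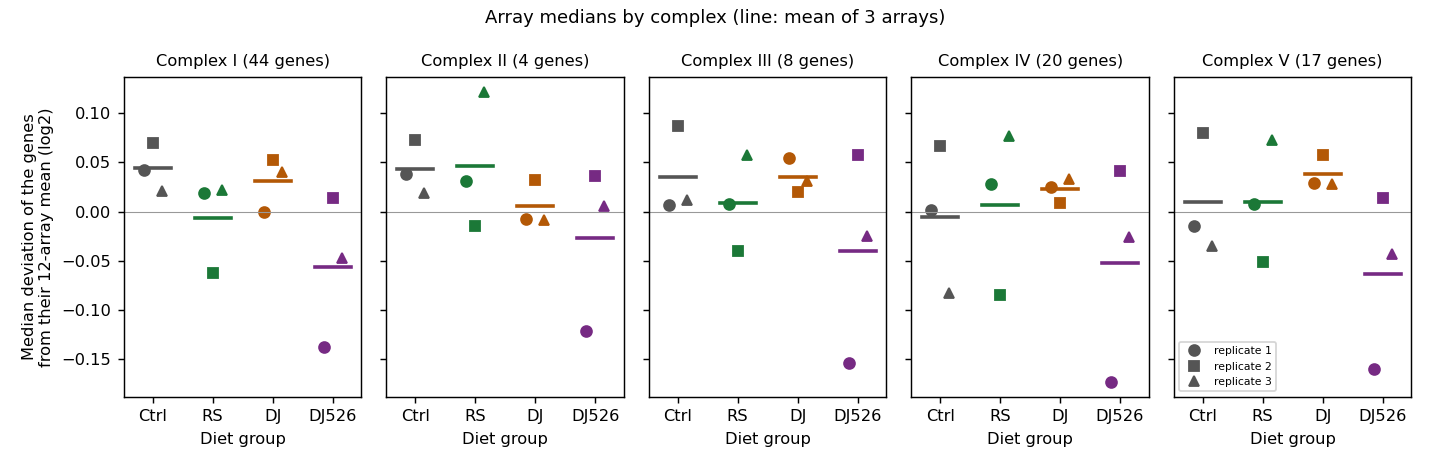
Median deviation of the genes of a complex from their own mean of 12 arrays (y axis, log2) for each array, by diet group (x axis), a panel per complex; symbols mark replicates and lines the mean of 3 arrays. DJ526 replicate 1 is the lowest point in every panel, from -0.12 to -0.17, and the other DJ526 arrays lie among those of the other diets.

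**Figure D3:**
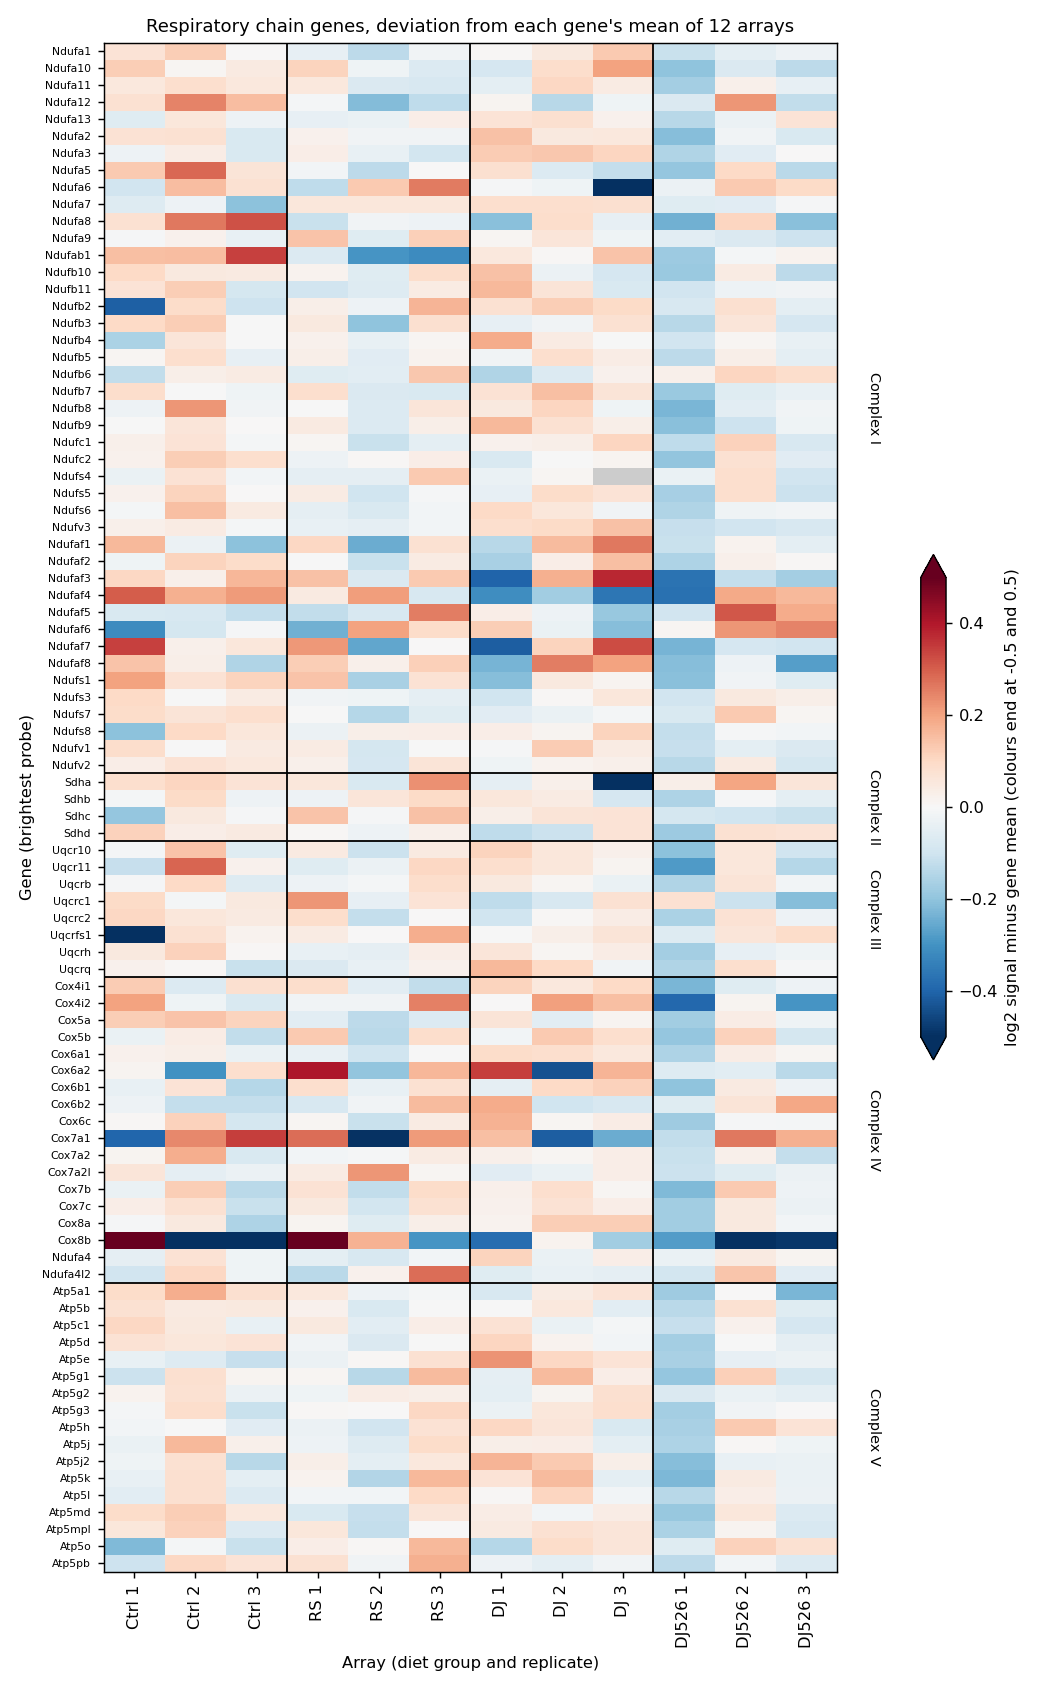
Deviation of 90 members (rows, by complex) from their mean over the 12 arrays (columns, by diet and replicate), as log2 signal with colours ending at -0.5 and 0.5; grey is a missing value. The column of DJ526 replicate 1 is blue over most rows, and single cells stand out for Cox8b, Uqcrfs1 and Ndufb2 on Ctrl replicate 1 and for Sdha and Ndufa6 on DJ replicate 3.

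Within slides only some pairs of diets could be compared. On slide 3, where RS replicate 3 lay with the DJ526 arrays, 81 of 93 members were lower in DJ526, with a median of -0.11 beside -0.10 over all probes and -0.02 over the detected genes. On slide 1, DJ replicate 1 against the Ctrl arrays gave a median of -0.01 with 49 members lower. On slide 2, DJ against RS gave 0.06 with 20 lower. No slide held DJ526 together with Ctrl or DJ, so that slide and diet cannot be told apart for those 2 comparisons other than through the chain of shared slides in a fit with slide as a block, which gave -0.16 and -0.16 for the members, beside -0.12 and -0.10 over all probes.

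Complex I began with its 7 core subunits, which carry the flavin and the iron-sulphur clusters. All 7 had lower means in DJ526 than in Ctrl, with a median difference of -0.09. Ndufs1, the largest iron-sulphur subunit, had levels of 4.69, 4.56 and 4.60 in Ctrl, 4.63, 4.33 and 4.56 in RS, 4.28, 4.54 and 4.50 in DJ, and 4.28, 4.47 and 4.43 in DJ526. Its DJ526 arrays lay below all Ctrl arrays (-0.22 ± 0.10 (SE), adjusted p = 0.448), and the DJ arrays did too. Ndufv1, which binds NADH and FMN, had levels of 6.24, 6.15 and 6.20 in Ctrl, 6.20, 6.07 and 6.15 in RS, 6.15, 6.28 and 6.20 in DJ, and 6.04, 6.10 and 6.08 in DJ526, and its lowest array was DJ526 replicate 1. The difference of Ndufv1 between DJ526 and Ctrl was -0.12 ± 0.06 (SE), adjusted p = 0.502. Ndufs7, which bears the last cluster before ubiquinone, had RS arrays wholly below Ctrl (-0.15 ± 0.07 (SE), adjusted p = 0.825), and the DJ arrays lay wholly below Ctrl too.

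Among the accessory subunits of complex I, Ndufab1, the mitochondrial acyl carrier protein, had the lowest p of all members for RS against Ctrl. Its levels were 1.31, 1.32 and 1.50 in Ctrl, 1.09, 0.87 and 0.85 in RS, 1.21, 1.16 and 1.30 in DJ, and 0.98, 1.15 and 1.18 in DJ526. All RS arrays but the first lay under every other array, and RS, DJ and DJ526 lay wholly below Ctrl. The differences from Ctrl were -0.44 ± 0.09 (SE), adjusted p = 0.413 for RS and -0.27 ± 0.09 (SE), adjusted p = 0.328 for DJ526, while DJ lay wholly above RS (0.29). Its F-test over the 4 diets had an adjusted p of 0.336.

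Ndufv3, an accessory subunit of the NADH-binding module, separated the rice diets most tightly. Its levels were 6.26, 6.27 and 6.22 in Ctrl, 6.20, 6.19 and 6.22 in RS, 6.32, 6.33 and 6.38 in DJ, and 6.12, 6.14 and 6.16 in DJ526. The 4 diets formed 4 ranges that did not overlap, DJ above Ctrl, Ctrl above RS and RS above DJ526. DJ526 against DJ gave -0.21 ± 0.05 (SE), adjusted p = 0.247, the lowest of any member in that comparison. A second, much dimmer Ndufv3 probe ran from -0.66 to -0.64 in Ctrl and from -0.47 to -0.32 in DJ526, with DJ526 above Ctrl, so that the 2 probes differed in direction there, as they did for RS against Ctrl (0.19 on the second), while both lay lower in DJ526 than in DJ.

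Ndufa12, which takes the place of an assembly factor late in the building of the complex, had levels of 5.00, 5.17 and 5.08 in Ctrl, 4.91, 4.71 and 4.79 in RS, 4.94, 4.78 and 4.90 in DJ, and 4.85, 5.14 and 4.80 in DJ526. Both RS and DJ lay wholly below Ctrl (-0.28 and -0.21), and DJ526 overlapped with Ctrl. Ndufa8, an accessory subunit on the intermembrane side, had levels of 3.86, 4.05 and 4.10 in Ctrl, 3.67, 3.77 and 3.76 in RS, 3.57, 3.87 and 3.74 in DJ, and 3.54, 3.89 and 3.57 in DJ526. RS lay wholly below Ctrl (-0.27 ± 0.11 (SE), adjusted p = 0.773), and the largest mean difference was that of DJ526 (-0.34), whose second array overlapped with Ctrl. Ndufa7 and Ndufa3, small accessory subunits, ran the other way in DJ. Ndufa7 had 5.95, 5.99 and 5.81 in Ctrl, 6.07, 6.07 and 6.07 in RS, 6.10, 6.10 and 6.09 in DJ, and 5.95, 5.96 and 6.01 in DJ526, with RS and DJ wholly above Ctrl. Ndufa3 had 5.90, 5.96 and 5.85 in Ctrl, 5.96, 5.89 and 5.83 in RS, 6.05, 6.06 and 6.03 in DJ, and 5.78, 5.87 and 5.93 in DJ526, with DJ above all other arrays (0.14 against Ctrl and -0.19 for DJ526 against DJ). None of these differences passed the adjustment.

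Ndufb6, of the membrane arm, was among the few members higher in DJ526 than in DJ (0.14), with levels of 4.75, 4.83 and 4.92 in DJ, and 4.92, 5.01 and 4.99 in DJ526. A second Ndufb6 probe, well above background on all arrays, gave -0.06, and with slide as a block the difference of the first was -0.0946, both of opposite sign. Ndufb8 and Ndufa9, subunits often read as markers of an assembled complex, had their lowest group means in DJ526. Ndufb8 had group means of 6.03, 5.97, 6.02 and 5.87 in Ctrl, RS, DJ and DJ526, and its lowest array was DJ526 replicate 1 at 5.74. Ndufa9 had 3.92, 3.94 and 3.89 in Ctrl, 4.06, 3.86 and 4.04 in RS, 3.93, 3.98 and 3.90 in DJ, and 3.87, 3.85 and 3.82 in DJ526, with DJ526 wholly below Ctrl by a difference of -0.07. Over the 29 accessory subunits, 25 had a lower mean in DJ526 than in Ctrl and 26 a lower mean than in DJ.

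The assembly factors of complex I, which build it without staying in it, varied more between arrays than the accessory subunits. Their median deviation per array ran from -0.20 to 0.18, beside -0.14 to 0.08. Their probes were also dimmer, with a median level of 1.09 to 1.66 over the arrays, beside 5.39 to 5.66. The part of signal strength in this contrast was not tested. Ndufaf4, whose promoter is shown above, had levels of 1.91, 1.78 and 1.82 in Ctrl, 1.65, 1.81 and 1.52 in RS, 1.30, 1.43 and 1.25 in DJ, and 1.23, 1.79 and 1.77 in DJ526. The DJ arrays lay wholly below Ctrl and below RS, and DJ526 was split, with replicate 1 at the DJ level and replicates 2 and 3 at the Ctrl level. DJ against Ctrl gave -0.51 ± 0.14 (SE), adjusted p = 0.763, the lowest adjusted p of any member in that comparison. A second Ndufaf4 probe gave -0.57 ± 0.14 (SE), adjusted p = 0.693 with DJ again wholly below Ctrl.

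Ndufaf3, the partner of Ndufaf4 early in assembly, had levels of 0.40, 0.32 and 0.47 in Ctrl, 0.45, 0.23 and 0.43 in RS, -0.10, 0.48 and 0.68 in DJ, and -0.07, 0.18 and 0.13 in DJ526, with DJ526 wholly below Ctrl and RS. Ndufaf7, a methyltransferase, had 1.64, 1.32 and 1.35 in Ctrl, 1.51, 1.04 and 1.30 in RS, 0.88, 1.41 and 1.62 in DJ, and 1.06, 1.21 and 1.20 in DJ526, with DJ526 wholly below Ctrl (-0.28). Ndufaf6 was the only member wholly above Ctrl in DJ526 (0.30 ± 0.13 (SE), adjusted p = 0.455), with levels of 1.67, 1.90 and 1.98 in Ctrl, and 2.00, 2.21 and 2.24 in DJ526. Ndufaf8 had 0.59, 0.49 and 0.59 in RS, and 0.26, 0.45 and 0.19 in DJ526, with DJ526 below RS. The 8 factors thus had members on either side, 6 lower and 2 higher in DJ526 than in Ctrl.

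**Figure D4:**
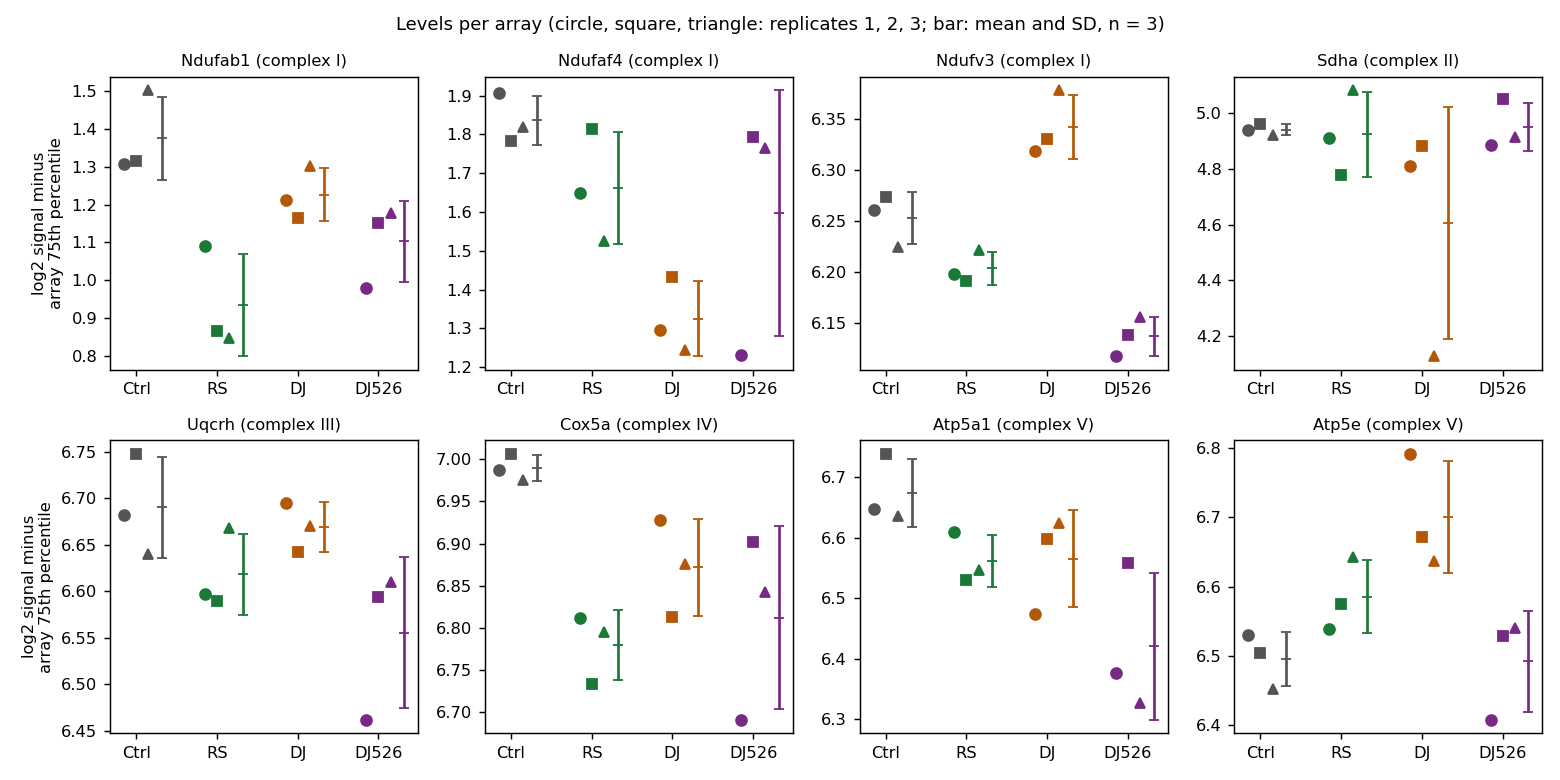
Levels of 8 members per array (y axis, log2 signal relative to the upper quartile of its array) by diet (x axis), with replicates as circle, square and triangle, and bars for mean and SD of 3 mice. Ndufv3 forms 4 separate ranges, Ndufab1 is low in RS, Ndufaf4 is low in DJ and on DJ526 replicate 1, and the mean of Sdha in DJ is set by replicate 3.

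Complex II oxidises succinate and is also an enzyme of the tricarboxylic acid cycle. Its 4 subunits had a median difference of -0.06 between DJ526 and Ctrl and of -0.02 between DJ526 and DJ. Sdha, the flavoprotein that binds succinate, had levels of 4.94, 4.96 and 4.92 in Ctrl, 4.91, 4.78 and 5.08 in RS, 4.81, 4.88 and 4.13 in DJ, and 4.89, 5.05 and 4.92 in DJ526. DJ replicate 3 stood alone below the rest, and the same array was the lowest for Ndufa6, at 4.85. With it the difference of DJ from Ctrl was -0.34 ± 0.16 (SE), adjusted p = 0.964, and without it the difference was -0.10 with an adjusted p of 0.998. Against DJ, DJ526 gave 0.35 with and 0.11 without it. Sdhb, the iron-sulphur subunit, had group means of 6.78, 6.81, 6.77 and 6.69 in Ctrl, RS, DJ and DJ526. Sdhc, a membrane anchor, had 4.69, 4.54 and 4.69 in RS, and 4.46, 4.45 and 4.43 in DJ526, with DJ526 wholly below RS (-0.19 ± 0.07 (SE), adjusted p = 0.754). A second Sdhc probe gave -0.09 there, with overlapping groups.

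Complex III showed no group in which a subunit moved far. All 8 subunits had a lower mean in DJ526 than in DJ, with a median difference of -0.07, and 6 of 8 were lower than in Ctrl, with a median of -0.11. Uqcrc1 and Uqcrc2, the core proteins, had group means of 3.81, 3.85, 3.72 and 3.68 and of 5.34, 5.26, 5.25 and 5.23 in Ctrl, RS, DJ and DJ526. Uqcrfs1, the Rieske iron-sulphur protein, had levels of 4.98, 5.56 and 5.50 in Ctrl, 5.52, 5.48 and 5.66 in RS, 5.48, 5.51 and 5.55 in DJ, and 5.42, 5.54 and 5.57 in DJ526. Its Ctrl replicate 1 was below all other arrays, as was that of Ndufb2, at 4.65.

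Complex IV held 20 members, of which many come as tissue isoforms. The catalytic core is encoded in the mitochondrial genome and was not analysed here. Cox4i1, the ubiquitous form of subunit 4, had levels of 7.13, 6.94 and 7.09 in Ctrl, 7.09, 6.95 and 6.88 in RS, 7.12, 7.06 and 7.11 in DJ, and 6.78, 6.95 and 6.98 in DJ526, and the DJ526 arrays lay wholly below DJ (-0.19 ± 0.08 (SE), adjusted p = 0.488). Cox5a, a matrix-side subunit, had 6.99, 7.01 and 6.98 in Ctrl, 6.81, 6.73 and 6.79 in RS, 6.93, 6.81 and 6.88 in DJ, and 6.69, 6.90 and 6.84 in DJ526. RS, DJ and DJ526 all lay below the lowest Ctrl array, with differences of -0.21, -0.12 and -0.18, the first with an adjusted p of 0.667. Cox5b, its zinc-binding neighbour, had group means of 6.01, 6.08, 6.11 and 5.99 and no such pattern. The 3 comparisons share the Ctrl arrays.

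Among the isoform pairs, the liver forms Cox6a1, Cox7a2 and Cox8a and the supercomplex factor Cox7a2l were detected on all arrays. Cox6a1 had group means of 8.33, 8.28, 8.40 and 8.29 in Ctrl, RS, DJ and DJ526, Cox7a2 had 5.53, 5.50, 5.52 and 5.43, and Cox8a had 7.12, 7.15, 7.24 and 7.11. Cox7a2l had 5.42, 5.60 and 5.39 in RS, and 5.27, 5.32 and 5.35 in DJ526, with DJ526 wholly below RS (-0.16). Its further probes gave -0.12 and -0.21 there, with overlapping groups. Ndufa4, once counted to complex I and now to complex IV, had group means of 5.97, 5.92, 6.01 and 5.98, and its hypoxia-responsive relative Ndufa4l2 had -1.12, -1.06, -1.16 and -1.12. For Cox6a1 the DJ arrays lay wholly above Ctrl and RS and the DJ526 arrays wholly below DJ, and the diets overlapped for Cox7a2, Cox8a, Ndufa4 and Ndufa4l2.

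Cox4i2, the hypoxia-responsive form of subunit 4, and the muscle forms Cox6a2, Cox7a1 and Cox8b were detected on all 12 arrays too, as was the testis form Cox6b2. Cox4i2 had levels of -1.23, -1.45 and -1.51 in Ctrl, -1.45, -1.45 and -1.18 in RS, -1.43, -1.23 and -1.28 in DJ, and -1.82, -1.42 and -1.73 in DJ526, with the lowest values on DJ526 replicates 1 and 3. Cox6a2 had group means of -3.48, -3.28, -3.38 and -3.49 and Cox6b2 of -2.07, -1.96, -1.98 and -1.92. Cox7a1 ran from 1.44 to 2.28 over the arrays, with ranges that overlapped between all diets.

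Cox8b stood apart on 1 control liver. Its levels were -1.44, -4.95 and -4.99 in Ctrl, -3.60, -4.09 and -4.56 in RS, -4.64, -4.25 and -4.44 in DJ, and -4.54, -4.92 and -4.75 in DJ526. Ctrl replicate 1 was above every other array by over 2 units, and the other Ctrl arrays were the lowest of all. With it, DJ526 was below Ctrl by a difference of -0.94 ± 0.75 (SE), adjusted p = 0.674, and without it the difference was 0.23 with an adjusted p of 0.797, of opposite sign. Cox8b is known from muscle and brown fat. Ucp1 and Cidea, markers of fat cells, were high on Ctrl replicate 1 too. Ucp1, the uncoupling protein of brown fat, had -0.82, -8.69 and -9.22 in Ctrl and between -9.47 and -8.26 elsewhere. Cidea, a lipid droplet protein, had -0.53, -2.85 and -5.43 in Ctrl and between -6.60 and -5.04 elsewhere. Cidea was thus also high on Ctrl replicate 2, where Cox8b was low at -4.95. Ucp1 was well above background on 1 array, Ctrl replicate 1.

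The fat cell markers Adipoq and Plin1 followed Cox8b less closely, with high levels on arrays of RS and DJ too. Adipoq, the fat hormone adiponectin, had -2.88, -6.67 and -6.73 in Ctrl, -3.03, -6.79 and -6.68 in RS, and -5.77, -3.49 and -5.64 in DJ, and Plin1, which coats lipid droplets, had -4.12, -7.02 and -6.67 in Ctrl, -4.98, -6.47 and -6.25 in RS, and -6.66, -5.30 and -6.97 in DJ. Both were high on Ctrl replicate 1, RS replicate 1 and DJ replicate 2. Over the 5 fat cell markers, with Fabp4 the fifth, the summed linear level ran from 2.26 to 4.94 in Ctrl, from 1.47 to 2.61 in RS, from 1.73 to 2.28 in DJ and from 1.53 to 1.87 in DJ526. On Ctrl replicates 2 and 3 and on the RS and DJ arrays, most of that sum was Fabp4. The log2 levels of the other fat cell markers lay far below 0 there, so the sum says little about them. The muscle form Cox7a1 was not high on Ctrl replicate 1, at 1.54, and the 5 skeletal muscle markers summed to 0.06 to 0.09 in Ctrl. The part of fat tissue in the Cox8b level was not tested.

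**Figure D5:**
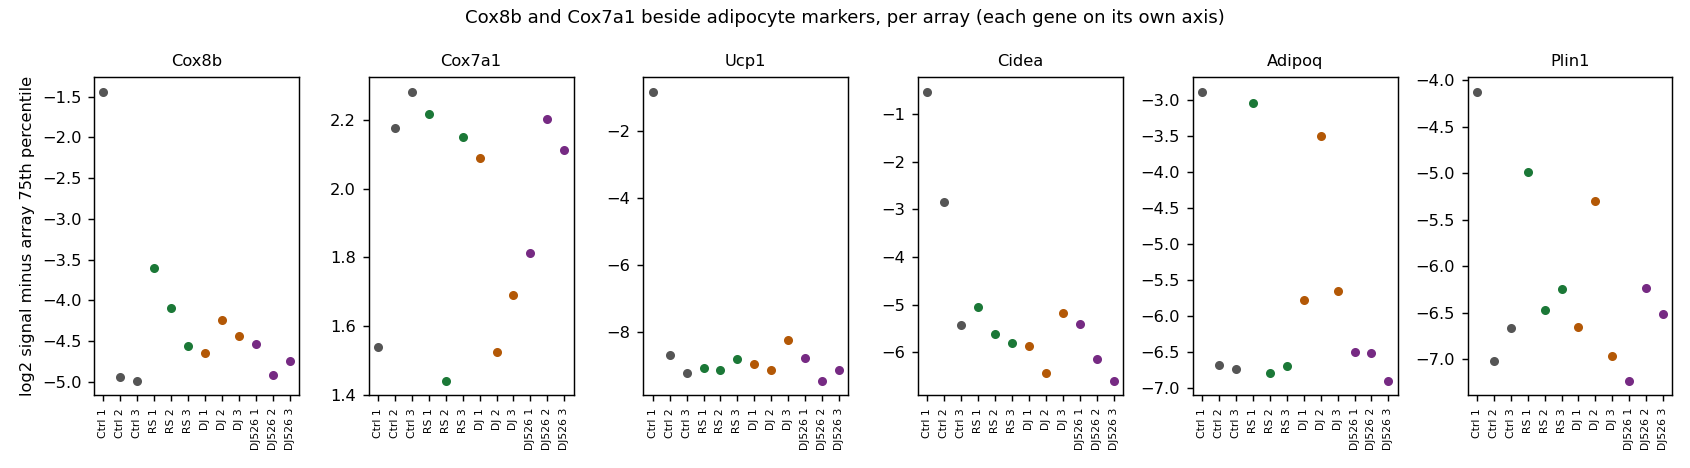
Levels of Cox8b, Cox7a1 and the fat cell markers Ucp1, Cidea, Adipoq and Plin1 (y axes, log2 signal relative to the upper quartile of its array, each gene on its own scale) for the 12 arrays (x axis, coloured by diet). Ctrl replicate 1 is the highest for Cox8b, Ucp1, Cidea, Adipoq and Plin1 and among the lowest for Cox7a1.

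Complex V is built of the F1 head, which makes ATP, the membrane part Fo, and the stalks between them. In DJ526, 15 of 17 members had a lower mean than in Ctrl (median -0.07), and 16 of 17 were lower than in DJ (median -0.09) and 16 of 17 lower than in RS (median -0.07). Atp5a1, the alpha subunit of the head (Atp5f1a in newer naming), had levels of 6.65, 6.74 and 6.64 in Ctrl, 6.61, 6.53 and 6.55 in RS, 6.47, 6.60 and 6.62 in DJ, and 6.38, 6.56 and 6.33 in DJ526. Its DJ526 arrays lay wholly below Ctrl (-0.25 ± 0.07 (SE), adjusted p = 0.27), the lowest adjusted p of any member in that comparison, and RS and DJ lay wholly below Ctrl as well. Atp5b, the catalytic beta subunit, had group means of 7.73, 7.66, 7.68 and 7.64.

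Atp5e, the epsilon subunit at the foot of the central stalk, ran high in DJ. Its levels were 6.53, 6.50 and 6.45 in Ctrl, 6.54, 6.58 and 6.64 in RS, 6.79, 6.67 and 6.64 in DJ, and 6.41, 6.53 and 6.54 in DJ526. RS and DJ lay wholly above Ctrl, by 0.09 and by 0.21 ± 0.07 (SE), adjusted p = 0.831, and DJ526 lay wholly below DJ (-0.21 ± 0.07 (SE), adjusted p = 0.381). Atp5j2, the f subunit of Fo, had 6.70, 6.66 and 6.56 in DJ, and 6.32, 6.49 and 6.50 in DJ526, with DJ526 below DJ. Atp5o, which joins head and outer stalk, had 4.55, 4.77 and 4.66 in Ctrl, and 4.81, 4.78 and 4.94 in RS, with RS above Ctrl, a direction that turned with normexp background correction (-0.155) and with slide as a block (-0.086). Atp5pb, the b subunit of the outer stalk, had 5.11, 5.01 and 5.21 in RS, and 5.01, 4.98 and 5.01 in DJ, with the DJ arrays below RS by less than the rounding of these values. The 3 genes for the c ring, Atp5g1, Atp5g2 and Atp5g3, had means that ran from 6.96 to 7.06, from 6.42 to 6.49 and from 6.89 to 6.99 over the diets.

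Neighbouring gene groups were read from lists chosen by function. Of the 6 mobile carriers and complex III parts outside the rule, 0 were called, and all 6 had a lower mean in DJ526 than in Ctrl, with a median of -0.21. Cycs, cytochrome c, had levels of 5.32, 5.18 and 5.23 in Ctrl, 5.15, 4.74 and 4.97 in RS, 5.02, 5.12 and 5.21 in DJ, and 4.81, 5.38 and 4.96 in DJ526, and Cyc1, cytochrome c1 of complex III, had group means of 5.27, 5.13, 5.20 and 5.04. Of 40 further assembly factors, 28 were lower in DJ526 than in Ctrl (median -0.07) and 28 lower than in DJ (median -0.06). Atpif1, the inhibitor of complex V, had 4.45, 4.54 and 4.53 in RS, and 4.25, 4.36 and 4.27 in DJ526, with DJ526 wholly below RS (-0.21 ± 0.09 (SE), adjusted p = 0.894).

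The 14 regulators of mitochondrial biogenesis did not share the lower side. They had a median of 0.05 for DJ526 against Ctrl and of 0.04 against DJ, with 8 of 14 and 9 of 14 higher. Their signal was weaker, with a median level of 0.23 to 0.61 over the arrays, beside 5.42 to 5.61 for the members. The part of signal strength in this contrast was not tested. Ppargc1a, the coactivator of mitochondrial genes, had levels of 1.14, 0.87 and 1.33 in Ctrl, 0.68, 0.67 and 1.38 in RS, 1.09, 1.37 and 1.80 in DJ, and 1.11, 1.77 and 1.47 in DJ526, with overlapping ranges. Tfam, which packs and transcribes mitochondrial DNA, had group means of 1.91, 1.97, 1.86 and 1.95. The 13 enzymes of the tricarboxylic acid cycle, without complex II, had a median of -0.06 against Ctrl and 0.03 against DJ. On DJ526 replicate 1 they were at -0.11, and on DJ replicate 1 they were lower, at -0.20. The 9 carriers, VDAC channels and uncoupling proteins had a median of -0.06 against Ctrl and -0.01 against DJ.

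The 78 mitochondrial ribosomal proteins, encoded in the nucleus like the members, behaved much like them. Their median was -0.10 for DJ526 against Ctrl and -0.09 against DJ, with 63 and 66 of 78 lower, and -0.13 on DJ526 replicate 1. The 74 cytosolic ribosomal proteins had medians of -0.08 and -0.05, with 61 and 57 of 74 lower. They were at -0.07 on DJ526 replicate 1, which was not their lowest array, as RS replicate 3 was at -0.08. The lower side in DJ526 was thus found in ribosomal protein genes as well.

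The effect of resveratrol on rice was set against that on starch as the difference DJ526 minus DJ, less RS minus Ctrl. The median member had -0.06, beside 0.01 over all probes, with 67 of 93 below 0, against 51.0% of the detected genes. The 1341 other genes of like signal had a median of -0.04 with 58.8% below 0. No member was called (background 0.00%), the lowest adjusted p being 0.634, and 7 had an unadjusted p under 0.05 (6.09% of all probes). Without DJ526 replicate 1 the median was -0.02 with 53 of 93 below 0. In the F-test over all diets 0 members were called (0.00507% of probes), the lowest adjusted p being 0.336 for Ndufab1, and 8 members had an unadjusted p under 0.05 (7.70% of probes).

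Other probes gave a check on direction. For 23 members, 30 further probes were well above background on all arrays. Their sign matched that of the brightest probe in 17 of 30 for RS against Ctrl, 21 for DJ against Ctrl, 17 for DJ526 against Ctrl, 24 for DJ526 against DJ, 22 for DJ526 against RS and 22 for DJ against RS. These 30 probes had a median of -0.03 for DJ526 against Ctrl with 18 lower, of -0.05 for DJ526 against DJ with 24 lower and of -0.05 for DJ526 against RS with 25 lower. For RS against Ctrl their median was 0.02 with 9 lower, of opposite sign to that of the brightest probes. For differences of this size the probes of a gene thus often disagreed in sign.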

How the data were processed

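Liver RNA of 12 mice was hybridised to 1-colour arrays, 1 array per mouse. The authors deposited the signal intensity of each spot as given by Feature Extraction (version 11.5.1.1, per the file headers), background-subtracted and on a linear scale, together with globally normalized intensities in 1 table, in which an array differs from its processed signal by a single factor (0.959 to 1.08) for 99.8% to 99.9% of its probes, to within 0.01%. No log2 values were taken from the authors' deposited files. Here the mean processed signal per probe, without control spots and outlier-flagged spots, was divided by the 75th percentile of its array and put on the log2 scale. No spot was saturated. Probes were named through RefSeq accessions (27502 of 39429 probes, 69.8%), and 68 probes lacked a value on some array. The number of arrays and the signal over background limit the precision.

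All 12 arrays were fitted together in limma 3.58.1 under R 4.3.3, with 1 mean per diet and a variance prior that follows the signal, and Benjamini-Hochberg adjustment ran over all probes, with 0.05 as threshold. The fit was tested on simulated data for DJ526 against Ctrl, with 200 probes changed at each size. It called 7% of changes of 0.5 on the log2 scale, 67% of changes of 1 and 95.5% of changes of 2. The changed probes were drawn from all probes well above background on every array, and noise was drawn for each probe by itself. Shifts shared by an array or a slide were not simulated, and the rates were not measured for the members. The p-values measure the spread between mice of 1 experiment, each read on 1 array. All Ctrl arrays lay on slide 1 and all DJ526 arrays on slide 3, so the spread within these groups holds no variation between slides. Named genes were a fixed set of subunits and isoforms, and in each comparison the 3 highest and 3 lowest differences among detected members whose groups did not overlap; Ndufs7, Ndufa6, Ndufb2, Uqcr11 and the genes of neighbouring lists were added after their values were seen. Members and lists were chosen with earlier results of these data known. Groups follow the labels; a supplementary sample table has DJ and RS exchanged, which was tried as an alternative. The labels and the methods name different RNA extraction kits. Other alternatives were median centring, quantile normalization, the deposited table, normexp with offset 50 (run without flagged spots, a choice made after seeing the data), dim probes left out, outliers kept, all probes of a gene, slide or replicate as a block, no variance trend, the methods' t-test, and leaving out each replicate. The genes of like signal were also chosen after seeing the data. Subunits encoded in the mitochondrial genome were not analysed here, and 1 member that enters the counts is not reported here by itself.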

Additional observations from a re-analysis of the deposited data

How the results depend on the processing

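The number of members called stayed 0 in all comparisons under every alternative run, while the number of all probes called varied. It was 173 for DJ526 against Ctrl and 107 for DJ526 against DJ without RS replicate 3, 9 and 27 with quantile normalization, and 40 for DJ526 against RS with slide as a block, against 2, 4 and 3. Median centring moved the member medians to -0.10 for RS against Ctrl, -0.15 for DJ526 against Ctrl, -0.18 for DJ526 against DJ and 0.12 for DJ against RS. Slide as a block gave -0.16 for DJ526 against Ctrl, -0.16 for DJ526 against DJ and -0.12 for the difference between the effects of resveratrol, beside -0.12, -0.10 and -0.11 over all probes in that fit, and normexp gave -0.08 for DJ526 against DJ beside -0.07. The deposited table gave -0.033 for DJ526 against DJ, and exchanging DJ and RS gave -0.0304 for DJ against RS. The cause was not tested.

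With the exchange the signs of the DJ against RS differences turned by construction: 0.11 for Atp5pb, -0.155 for Ndufa3, -0.29 for Ndufab1, 0.34 for Ndufaf4 and -0.14 for Ndufv3, and Ndufa3 in DJ against Ctrl became -0.0108. Atp5o in RS against Ctrl became -0.155 with normexp and -0.086 with slide as a block, and Ndufb6 in DJ526 against DJ became -0.0946 with slide as a block. Leaving out 1 array at a time gave medians from -0.12 to -0.05 for DJ526 against Ctrl, from -0.13 to -0.05 for DJ526 against DJ, and from -0.09 to -0.01 for DJ526 against RS. Correlations of same-numbered arrays ran from -0.27 to 0.26 over 18 pairs. No correlations of differently numbered arrays were set beside them, so they cannot decide whether the replicate numbers pair the mice. With replicate block the members called stayed 0. The medians of these 3 comparisons stayed at -0.08, -0.09 and -0.06 by construction, as every diet holds every replicate number. The DJ526 medians kept their sign under all alternatives run. Replicate block, no variance trend and the methods' t-test could not turn it, as they leave the differences of the group means unchanged. The medians near 0 did not: DJ against Ctrl (0.01) was at -0.01 with the deposited table and with slide as a block, 0.00 (45 members higher, 48 lower) with quantile normalization and without DJ replicate 2, and -0.02 without Ctrl replicate 3; RS against Ctrl (-0.03) was at 0.01 without Ctrl replicate 2 and 0.00 without RS replicate 2; DJ against RS (0.03) was at -0.01 with the deposited table and 0.00 (46 higher, 47 lower) without RS replicate 2. The exchange also turned the first 2 of these by construction. With 3 mice per diet, differences as large as -0.51 (Ndufaf4, DJ against Ctrl) and -0.44 (Ndufab1, RS against Ctrl) were not called.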
